A study of Homo sapiens with 3 samples.

Results

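LOC554202 is a long non-coding RNA gene on the short arm of chromosome 9, in band 9p21. It was chosen from the authors' list of specific DKK-1 binding sites, where it is given as the gene of 1 of the 200 sites, so the enrichment values of that site are a description and were not tested. Its members were the specific site and all peaks within 1 Mb of either end of the transcript. This gave 32 peak regions of the 8723 in the 2 peak lists together, against 679 on the rest of chromosome 9. The ChIP-seq was made in the human colorectal adenocarcinoma cell line DLD-1. MACS compared 1 immunoprecipitate from DLD-1/DKK-1 cells with 1 from DLD-1/Mock cells, which gave the list called the Mock list here, and with 1 pool of input DNA, which gave the input list. DLD-1/DKK-1 cells carry a lentiviral, doxycyclin-inducible DKK-1 with a V5 tag, and DLD-1/Mock cells are the transduced control line. Per the study's methods DKK-1 was induced in transduced cells by culture with doxycyclin, and the length of this treatment before ChIP is not given in the sources used here. The sample records name an antibody against V5 for both immunoprecipitates and the study's methods name one against DKK-1. With 1 library per condition there was no spread between replicates, and no difference between conditions was tested.

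The RefSeq transcript of the list, NR_027054, belongs to the gene now named MIR31HG, the host gene of miR-31. Host genes of this kind are transcribed as long RNAs, and the miRNA hairpin is cut out of the primary transcript and processed to the mature form, which pairs through its seed with target mRNAs. miR-31 is among the miRNAs known to be deregulated in colorectal tumors. In the RefSeq annotation of GRCh38.p14, IFNE, an interferon gene of epithelia, and MIR31 are nested in MIR31HG. The nearest protein-coding gene on the lower-coordinate side is IFNA1, followed by further interferon alpha genes. On the higher-coordinate side follow MTAP, an enzyme of methionine salvage, then CDKN2A and CDKN2B, which encode inhibitors of cyclin-dependent kinases, and then DMRTA1. Only the order of these genes was used, since the peaks are positioned in hg18 and positions of the 2 builds cannot be compared directly. No peak was therefore assigned to IFNE, MIR31 or any of the flanking genes.

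The mature miRNA and its hairpin are shown because they are the best-known product of this locus. Both are on the minus strand of chromosome 9, inside MIR31HG, as given by RefSeq for GRCh38.p14. The capitals mark the seed (bases 2 to 8) in the mature form, and the mature form (bases 8 to 28) in the hairpin of 71 bases. No other mature miRNA of that table had the same seed.
hsa-miR-31-5p: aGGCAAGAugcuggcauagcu
MIR31 hairpin: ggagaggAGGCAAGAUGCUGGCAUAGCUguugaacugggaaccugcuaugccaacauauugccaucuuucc

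The specific site lay on chromosome 9 from 21514722 to 21515173 in hg18, a width of 452 bp, with its summit 339 bp from the left edge. The authors' list places the transcript on the minus strand from 21444266 to 21549696, a length of 105431 bp with 4 exons. The site was in intron 1, the longest of the 3 introns at 82196 bp. From the transcript start to its centre were 34748 bp, and 34313 bp separated it from the nearest exon, exon 1.

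The site held 16 tags of the DLD-1/DKK-1 immunoprecipitate, with a 95% Poisson interval of 9.15 to 26.0 that covers counting error only. Its fold enrichment, the tags at the summit over the tags that MACS expected there, was 10.68 in the Mock list and 11.82 in the input list. The second value is what 14 summit tags give when divided by the genome-wide mean of 1.18 tags in a fragment of 150 bp, and with the same 14 tags the first implies 1.31 expected tags. The counting interval of 14 tags, 7.65 to 23.5, corresponds to a fold enrichment of 6.46 to 19.8 in the input list and 5.84 to 17.9 in the Mock list. Here the expected tags were taken as fixed, and the site had been selected by its fold enrichment. These ranges are therefore not the full error of the fold enrichment. The MACS score, which is −log10 of P multiplied by 10, was 60.2 in the Mock list and 66.15 in the input list. The empirical FDR was 44.89% in the Mock list and 98.64% in the input list. No peak of the whole Mock list had an FDR below 33.17% (median 47.07%), and none of the input list below 65.44% (median 74.0%). The FDR of the site was thus near the median in the Mock list and above it in the input list. Among the 200 specific sites LOC554202 was in the middle of the range in most measures: 104 sites held more tags and 72 fewer, and 100 were wider and 99 narrower. Its score in the Mock list was in the lower part, with 51 sites below it and 148 above. Its fold enrichment in the input list was exceeded at 23 sites, and 18 of the 200, LOC554202 among them, had this same value.

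Specific sites were those shared peaks whose enrichment reached 10-fold in both lists, which was 200 of 3189, or 6.27%. Across all shared peaks, the lower of the 2 values was 10.01 for the peak just inside this limit and 9.98 for the peak just outside. Within 1 Mb of LOC554202 the site had 10.68 and the next shared peak 8.67.

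The transcript held 7 peak regions, 6 in each list, and 5 of them were in both. All 7 lay in intron 1, and none touched an exon. From left to right, which on this strand is from the 3′ towards the 5′ end, the first was at 21495343 to 21495884 with 22 tags. The second, at 21500088 to 21500676, held 23 tags, and its Mock-list score of 97.06 was the highest in the transcript. The third, at 21510644 to 21511081 with 17 tags, ended 3640 bp before the specific site and was its nearest neighbour. These 3 peaks and the specific site were in both lists.

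On the other side of the site, 5965 bp away, a peak at 21521139 to 21521623 with 16 tags was found in the Mock list only, with a score of 50.29, close to the limit of 50 that the P value cut-off sets. The peak at 21532792 to 21533484 with 20 tags was in both lists. The last, at 21536927 to 21537416 with 17 tags, was found in the input list only. The peaks of the intron held 16 to 23 tags and were 438 to 693 bp wide, and the Poisson interval of the specific site covered the tag number of every other one. Fold enrichment in the transcript ranged from 6.87 to 10.68 in the Mock list and from 7.23 to 11.82 in the input list. The third peak also passed 10 in the input list, at 10.14, but had 8.47 in the Mock list.

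No peak overlapped the transcript start at 21549696. The nearest one upstream, at 21555927 to 21556388 with 19 tags in both lists, began 6230 bp beyond it. The nearest one downstream was the peak of 17 tags found in the input list only, which ended 12280 bp short of it, and the nearest downstream peak in both lists ended 16212 bp short of it. On the other side the part of the transcript beyond the first peak, with exons 2, 3 and 4, held no peak of either list.

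The specific sites with a gene name 82 different transcripts, which held a median of 1 peak in each list. All were listed for a specific site, itself a peak of both lists, so this median largely follows from the selection. In the Mock list 45 of the 82 held at most 1 peak. In the Mock list 5 transcripts held more peaks than LOC554202 (VPS13B, EIF3H, SNTG1, CNTNAP2 and PREX2) and 2 the same number. In the input list 3 held more (VPS13B, CNTNAP2 and PREX2) and 3 the same number. Outside chromosome 8, where peaks are densest, CNTNAP2 alone held more, in a transcript of 2304636 bp. Relative to length, LOC554202 had 5.69 peaks per 100 kb in each list. Of the 61 transcripts of at least 50 kb, EIF3H with 10.8 and GOLGA1 with 6.37 were higher in the Mock list, and none was higher in the input list. This length limit was not varied. Some shorter transcripts were higher, such as ITGB1BP2 with 28.0 in each list from 1 peak in 3577 bp. WDR34 had 12.9 in the Mock list and 4.31 in the input list. Other shorter ones were lower, such as ZFP106 with 2.24 in each list. The transcript was selected for a peak, and without the specific site its 5 other peaks per list came to 47.4 per Mb in place of 56.9.

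**Figure D1:**
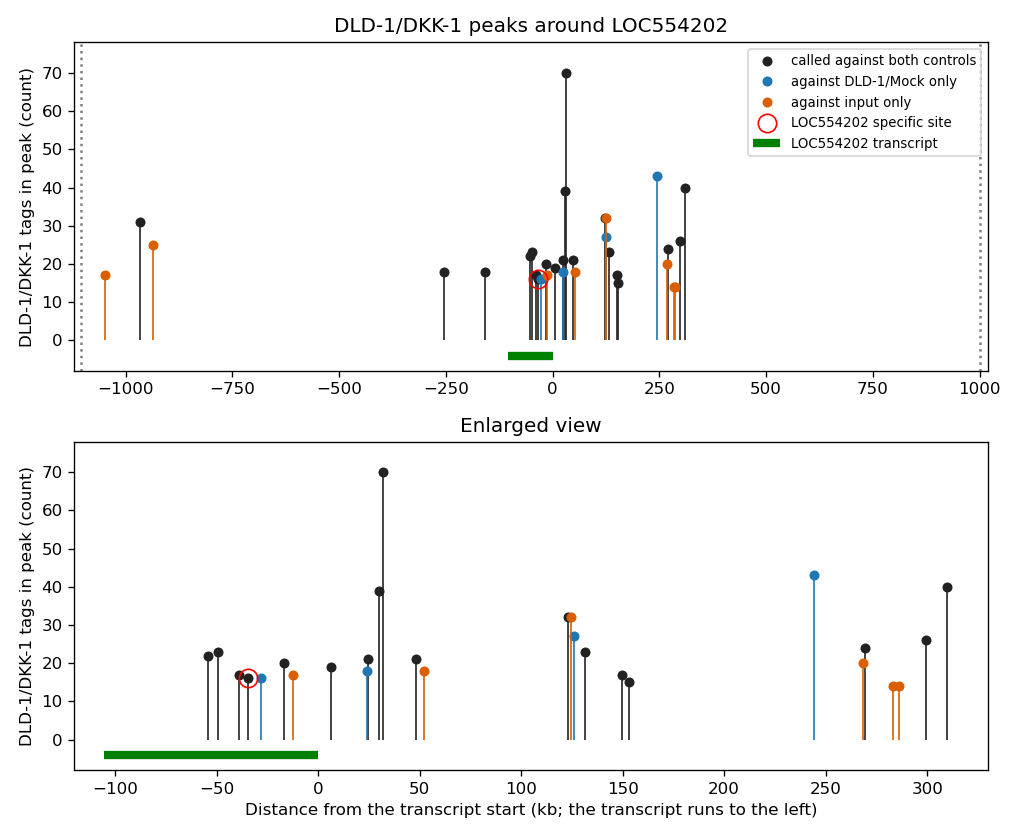
Tags of the DLD-1/DKK-1 library in each of the 32 peak regions (count, y axis) by distance of the peak centre from the LOC554202 transcript start (kb, x axis), for the whole window between the dotted lines and enlarged below, with colours for presence in one or both lists. Of the peaks, 29 stand in a single run around the gene, the highest of 70 tags is upstream of the start, and the right part of the window holds none.

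The peaks of the window were not spread evenly. Taking peaks of either list at most 200 kb apart as a run, a distance chosen after the values had been seen, 29 of the 32 regions formed a single run of 565 kb from 21295107 to 21860135. It held 23 of the 24 window peaks in the Mock list and 25 of the 28 in the input list, 19 of them in both. To its left, 680 kb were free of peaks. To its right no peak of either list followed for 2.72 Mb, which covers the remaining 690 kb of the window and continues beyond it. The run was the same with a distance of 500 kb. With 100 kb it lost the 2 leftmost peaks and held 27 regions in 365 kb. At 200 kb, 3 other runs of chromosome 9 were as large or larger, the largest with 103 regions, and all of these lay beyond 38 Mb, since before 38 Mb the next largest run had 6 regions. At 100 kb 2 other runs of the chromosome were as large, also with 27 regions. At 500 kb 5 other runs were as large or larger, the largest with 275.

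Outside the transcript, 2 regions of the run lay downstream of its 3′ end, at 21295107 to 21295604 and at 21389943 to 21390512, each with 18 tags and in both lists. The other 20 lay upstream of its start. There were 7 regions in the first 100 kb upstream, 6 in the second 100 kb and 7 in the next 200 kb. The transcript itself, about as long as each of the first 2 intervals, also held 7. The next 200 kb thus held as many regions as the transcript in a longer stretch, and the run ended 310.4 kb upstream of the start.

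The window peak with most tags lay 31115 bp upstream of the start, at 21580812 to 21582480. It was 1669 bp wide, held 70 tags (95% Poisson interval 54.6 to 88.4) and had the highest score of the window in the Mock list, 186.63, with an FDR of 100%. In the input list its score was 86.56, and its fold enrichment was 8.41 in the Mock list and 5.06 in the input list. A peak of 39 tags at 21579309 to 21580331 ended 480 bp before it, and its score in the Mock list was 104.76. No other window peak of that list reached a P value of 1e-10. These 2 were 8.33% of the 24, compared with 3.9% on the rest of chromosome 9 and 3.48% in the whole list.

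The next in tags was the peak at 21793252 to 21794504, with 43 tags (31.1 to 57.9), which was found in the Mock list only. The rightmost peak of the run, at 21859054 to 21860135, held 40 tags in both lists, with a score of 71.87 in the Mock list and 101.8 in the input list. The peaks at 21672598 to 21673407, in both lists, and at 21673683 to 21674518, in the input list only, held 32 tags each and were 275 bp apart. The interval of 43 tags reached into that of 70 tags, 54.6 to 88.4, so the order of those 2 peaks is by tag number only. The intervals of 39, 40 and 43 tags overlapped as well, so these peaks are not ranked among each other. They were all wider than the median: over the 32 regions the density of tags was within 28.9 to 51.3 per kb of peak, and the wide peaks held more tags at a like density.

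Left of the run were 3 regions, of which the peak at 20582224 to 20583087 was in both lists with 31 tags. It had the largest gap between its fold enrichments in favour of input, 7.62 in the Mock list and 11.82 in the input list. The other 2, with 17 and 25 tags, were found in the input list only.

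Of the 24 window peaks in the Mock list, 20 were also in the input list, or 83.3%, where 48.1% of all peaks of that list and 36.0% of those on the rest of chromosome 9 were. Of the 28 in the input list, the same 20 were also in the Mock list, or 71.4%, against 60.4% of the whole list and 70.2% on the rest of chromosome 9. Each shared peak has identical coordinates, tags and summit in both lists, since both use the single DLD-1/DKK-1 library. A peak in both lists is thus 1 observation compared with 2 controls, and not a repeat. A fold enrichment of at least 10 was reached by 1 of the 24 peaks in the Mock list (4.17%), below the 9.12% of the whole list, and by 3 of the 28 in the input list (10.7%), near the 9.6% of the whole list.

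The peaks of the window held a median of 21.5 tags in the Mock list (range 15 to 70), where the rest of chromosome 9 had a median of 17 and the whole list 16. The corresponding medians of the input list were 20.5, 18 and 16 tags. Width had a median of 579.5 bp in the Mock list, compared with 510 bp on the rest of chromosome 9 and 477 bp in the whole list, and of 556 bp in the input list, compared with 507 and 473 bp. The summit lay at a median of 57.0% of the peak length from the left edge in the Mock list and 55.5% in the input list, with a range over the 32 regions from 16.1% to 84.5%. The median fold enrichment was 8.18 in the Mock list and 7.7 in the input list, where each whole list had 7.6. The window peaks were therefore wider and richer in tags than the median peak, while their median fold enrichment was above it by less than 1 summit tag is worth at the genome-wide mean. The FDR ranged from 35.29% to 100% in the Mock list and from 68.88% to 100% in the input list.

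**Figure D2:**
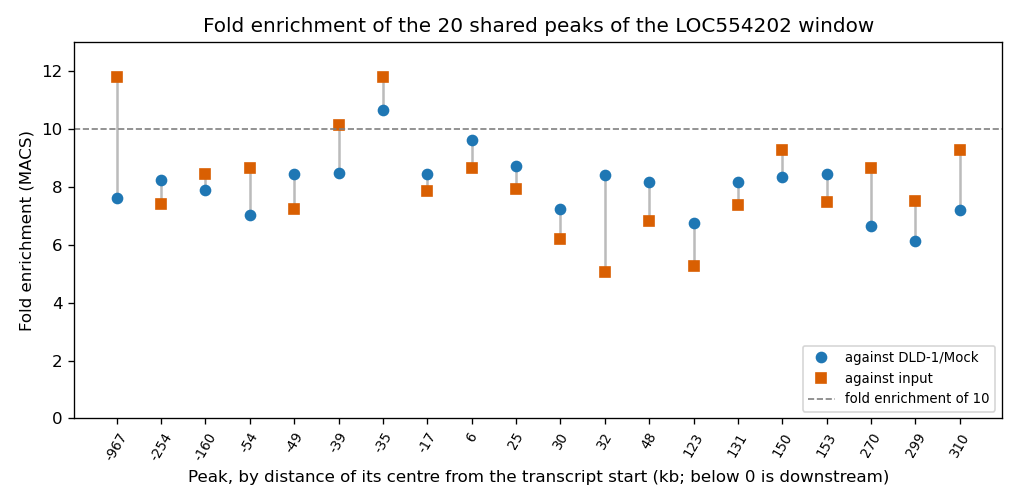
Fold enrichment given by MACS (y axis) of the 20 shared peaks of the window in the Mock list (circles) and in the input list (squares), in order along the chromosome and named by the distance of the peak centre from the LOC554202 transcript start (kb, x axis). Only the specific site, 34.7 kb downstream of the start, is above the dashed line at 10 in both lists. Circles are above squares for the 5 peaks in the first 100 kb upstream and below them for the 3 peaks beyond 200 kb.

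Since the tags at the summit are the same in both lists, the ratio of the fold enrichments of a shared peak is the inverse ratio of the tags that MACS expected from each control. In the window it ranged from 0.645 to 1.66 (DLD-1/Mock over input, median 1.09), was above 1 at 11 shared peaks and below 1 at 9. On the rest of chromosome 9 it ranged from 0.406 to 1.89 (median 1.05). There it was above 1 at 120 of 212 shared peaks and below 1 at 54. Among all 3189 shared peaks it was above 1 at 1414 and below 1 at 1032. In the window the ratio was equal to 1 at 0 of the 20, compared with 38 of 212 (17.9%) on the rest of chromosome 9 and 23.3% of all shared peaks. Its side changed repeatedly along the run. In the first 100 kb upstream of the transcript it was above 1 at 5 of 5 shared peaks, from 1.1 to 1.66 with the highest at the peak of 70 tags. In the second 100 kb it was above 1 at 3 of 4, and from 200 kb on it was below 1 at 3 of 3, from 0.769 to 0.816. Inside the transcript it was above 1 at 2 and below at 3. These intervals were set after the values had been seen.

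MACS divides the summit tags by the genome-wide mean where the control near the peak is no higher, and the fold enrichment is then, within rounding, a multiple of that of 1 tag. The fold enrichment was such a multiple for 3 of the 24 window peaks in the Mock list (12.5%), compared with 34.5% on the rest of chromosome 9 and 37.0% in the whole list. In the input list it was so for 7 of 28 (25.0%), compared with 29.1% and 39.0%. In each list the fold enrichment of the other 21 window peaks was not such a multiple. Their expected tags were taken to come from the control near the peak, within 1000 or 10000 bp. This is inferred from the fold enrichments alone, since no control counts were read. The part of the local control level in these peaks was not tested, and the lists hold no coverage of the controls between peaks.

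The density of peaks in the window was 11.4 per Mb in the Mock list, over 2.11 Mb, and 4.32 per Mb on the rest of chromosome 9, a ratio of 2.64. In the input list it was 13.3 and 2.19 per Mb, a ratio of 6.08. Without the specific site the ratios were 2.53 and 5.86. The ratio depended on the width of the window: with 0.5 Mb on each side it was 4.84 in the Mock list and 10.3 in the input list, and with 2 Mb it was 1.45 and 3.56. It was 1.38 in the Mock list when only peaks of at least 10-fold enrichment were counted, which left 1 in the window, and 5.63 with a P value of at most 1e-10, which left 2. The rest of the chromosome was uneven. Its largest gap without peaks, 31.1 Mb in the Mock list and 37.3 Mb in the input list, separated a left part with few peaks, which includes LOC554202, from a right part with many. This gap is counted in the length of the rest of the chromosome. With the rest limited to 1 Mb bins that held a peak in either list, the ratios were lower, 1.92 in the Mock list and 4.37 in the input list. The left part without the window had 1.57 peaks per Mb in the Mock list and 1.81 in the input list, and relative to it the ratios were 7.25 and 7.34. The right part had 7.55 and 3.66 per Mb. In bins of 1 Mb counted from the start of the chromosome, the bin with the site held 23 peaks in the Mock list, and the other 37 bins of the left part 0 to 3 (median 1). In the input list it held 25, and the others 0 to 6 (median 2). On the right part 4 bins held as many or more in the Mock list, up to 36, whereas in the input list none did, with 16 at most. With bins centred on the site instead, the highest other bin held 35 peaks in the Mock list and 17 in the input list.

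**Figure D3:**
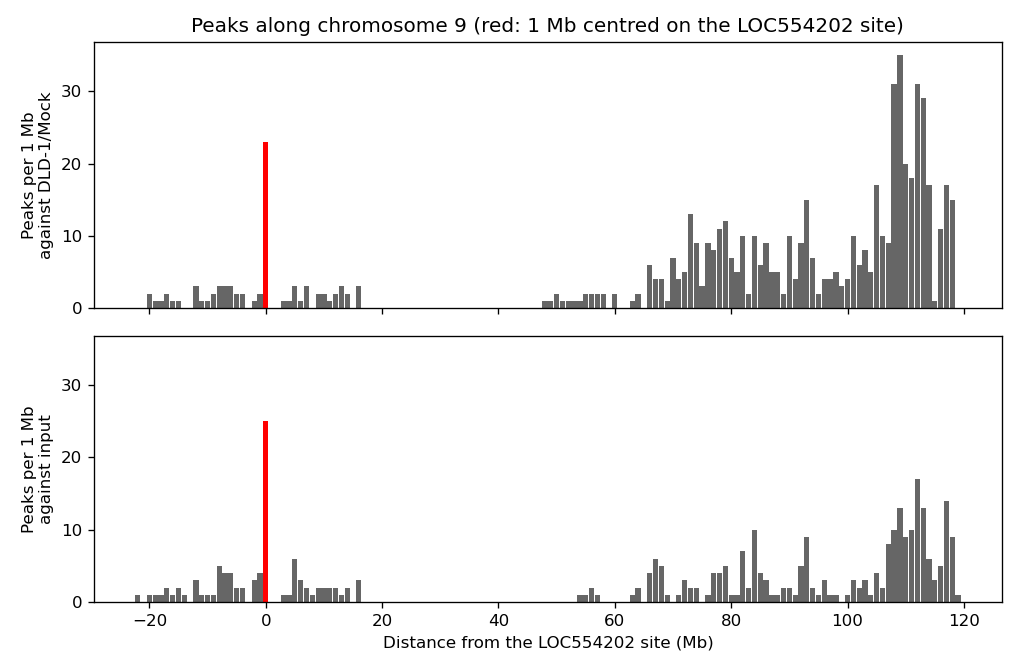
Number of peaks per 1 Mb (y axis) along chromosome 9, in bins centred on the LOC554202 site, by distance from it (Mb, x axis), in the Mock list above and in the input list below. The red bar centred on the site holds 23 and 25 peaks and stands alone in the left part of the chromosome, and in the Mock list taller bars are found near the right end.

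Across the genome, 48 bins of 1 Mb held at least 23 peaks in the Mock list, 8 of them outside chromosome 8 and 2 outside chromosomes 7, 8 and 9, of 1915 bins with a peak. In the input list 14 bins held at least 25, 3 of them outside chromosome 8, of 1846. Both counts include the LOC554202 bin where chromosome 9 is included. Around the centre of the site, 24 peaks of the Mock list and 27 of the input list were within 1 Mb, the site among them. The 200 specific sites had a median of 5 and 6. Of the sites outside chromosome 8, 8 of 151 had more than LOC554202 in the Mock list and 3 of 151 in the input list. The 11 other specific sites of chromosome 9 had 1 to 61 peaks in the Mock list, 5 of them more than LOC554202, and 1 to 23 in the input list, all fewer. The 4 others before 38 Mb had 1 to 4 in each list.

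**Figure D4:**
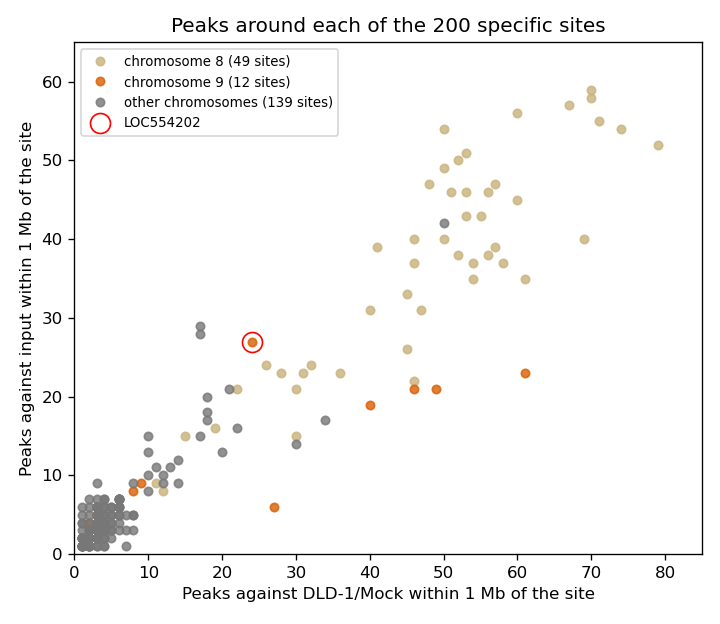
Peaks in the Mock list (x axis) and in the input list (y axis) within 1 Mb of each of the 200 specific sites (points, coloured by chromosome). LOC554202, ringed at 24 and 27, is apart from most sites outside chromosome 8, and of the 12 sites on chromosome 9 it is the one with most peaks in the input list.

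After filtering, MACS used 21312041 tags of DLD-1/DKK-1, 24151009 of DLD-1/Mock and 27723787 of input, so that both controls were deeper than the library in which the peaks were found. The peak lists hold no measure of LOC554202 RNA or of miR-31.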

How the data were processed

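The authors aligned reads of 40 bp to hg18 with ELANDv2 in CASAVA 1.7, kept unique alignments and called peaks with MACS 1.4.0beta on single libraries, with at most 2 tags per position, a band width and fragment size of 150 bp, a P value cut-off of 1e-05, an effective genome size of 2700000000 bp and regional backgrounds of 1000 and 10000 bp. Tags per peak are counts of the DLD-1/DKK-1 library, deposited without normalization. Also deposited by the authors as MACS wrote them were a score, 10 times −log10 of P, the fold enrichment, which is a ratio, and the FDR, a percent. Positions are in hg18, counted from 1. Transcript starts were read as counted from 1, since in all 6 non-coding transcripts the listed coding start was 1 past the end.

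The window was the LOC554202 transcript with 1 Mb on each side, and a peak with 1 bp in it was a member. The rest of chromosome 9 was taken from the first to the last peak of a list. Intervals for tags are exact 95% Poisson intervals for counting error only. Peaks are not replicates, so no test was made. LOC554202 was matched to RefSeq (GRCh38.p14) by its accession. Described in full were the specific site, all peaks in the transcript, the nearest peak on each side of the site and the 5 window peaks with most tags in each list. The gene, lists and measures were chosen with earlier results of these data known. Python 3.11.15, pandas 2.3.3, numpy 2.4.6, scipy 1.17.1 and matplotlib 3.10.9 were used, and the overlap functions were tested on simulated data. Sequence of the peaks was not analysed here.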

Additional observations from a re-analysis of the deposited data

How the results depend on the processing

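Alternatives were chosen with earlier results of these data known. Leaving out the specific site and the distances of 100 and 500 kb for the run were added after their main values had been seen. Counts and density ratios were called unchanged up to a factor of 1.5, and a median within 1 SD over the window peaks. Of the 68 alternatives over 14 results, 47 stayed within these limits and 21 did not, and no density ratio fell below 1. With a P value of 1e-10 or less, 2 window peaks remained in each list, 0 of them shared, 0 in the transcript in either list or shared, and 0 specific sites, while the density ratio rose to 5.63 in the Mock list and 9.36 in the input list. In the Mock list the 2 were 8.33% of the window peaks, where the whole list had 3.48%. In the input list they were 7.14%, where the whole list had 2.94%. With a fold enrichment of at least 10, the window kept 1 peak of the Mock list, 3 of the input list and 1 shared, and in the transcript 1, 2 and 1, with a density ratio of 1.38 in the Mock list. The ratio was 4.84 in the Mock list and 10.3 in the input list with a window of 0.5 Mb on each side, and 1.45 and 3.56 with 2 Mb. Relative to the part of chromosome 9 left of its largest gap it was 7.25 in the Mock list. Fewer peaks under the filters follow from their construction, and the change with the window follows from where the peaks lay, with 23 peaks of the Mock list within 0.5 Mb, 24 within 1 Mb and 26 within 2 Mb of the transcript. Filtered ratios rest on 1 to 3 window peaks. Merging, peak centres, reciprocal overlap and summit distance left every count within the limits. No paired analysis was possible because there was a single library for every condition and no test was run.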
